A study of Mus musculus with 23 samples.

Results

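The amylase gene cluster comprised 6 gene symbols of the count tables, *Amy1*, *Amy2b*, *Amy2a2*, *Amy2a3*, *Amy2a4* and *Amy2a5*, out of 18512 symbols in all. They were picked by symbol and not by a threshold on a measured value, with earlier results of these data known, and no other symbol began with Amy. Counts of read fragments per gene were available from the head of the pancreas of 23 C57BL/6 mice aged 6 to 8 weeks: 8 non-injured mice at baseline (4 females and 4 males), 8 at day 7 (4 females and 4 males) and 7 at day 14 (3 females and 4 males). Injury in the day 7 and day 14 mice was induced by intraperitoneal caerulein, an analogue of cholecystokinin that overstimulates the acinar cell, at 50 µg/kg per injection with 8 injections a day on 2 days. The labels name no vehicle injection for the baseline mice. Total counts ranged from 7059890 to 9567446 per mouse. The whole piece of gland was sequenced, so fewer cells of a type and less RNA per cell cannot be told apart.

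Amylase cleaves starch and glycogen into short sugars and is among the best known secretory products of the pancreatic acinar cell. In the mouse, *Amy1* encodes the form made in salivary gland and liver, and the *Amy2* genes encode the pancreatic form. Acinar transcription of the *Amy2* genes is driven by the PTF1 complex, which holds *Ptf1a* and *Rbpjl*, and is known to depend on insulin. The comparisons below asked how the transcripts of this enzyme stood at each time point of recovery relative to the non-injured gland.

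All 6 genes lie on the minus strand of mouse chromosome 3 within 459 kb (GRCm38, the assembly also called mm10, with GENCODE vM21 gene models). From low to high coordinates they are *Amy2b* at chr3:113147656-113156727, *Amy2a5* at chr3:113247178-113258837, *Amy2a4* at chr3:113279843-113291449, *Amy2a3* at chr3:113312455-113324052, *Amy2a2* at chr3:113345055-113356658 and *Amy1* at chr3:113555710-113606699. GENCODE classed *Amy2b* as an unprocessed pseudogene, whereas RefSeq classed it as protein coding, and both classed the other 5 as protein coding. The GENCODE transcripts of *Amy2a2*, *Amy2a3* and *Amy2a4* were identical over all 3717 bases. The coding part of *Amy2a5* was identical to theirs over 1524 bases. *Amy2b* differed from *Amy2a5* at 29 of 1523 aligned bases (98.1% identity) and *Amy1* at 154 of 1524 (89.9% identity).

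The degree to which reads could tell these copies apart is seen in the stretch of 75 coding bases, the length of a sequencing read, that was chosen for holding the most differences between *Amy2b* and *Amy2a5*. It lies in exon 2 of the *Amy2* transcripts and in exon 3 of the *Amy1* transcript shown, and it is printed 5′ to 3′ on the minus strand of GRCm38, with capitals at each base that differs from *Amy2a5*.
*Amy2a5* (chr3:113258101-113258175): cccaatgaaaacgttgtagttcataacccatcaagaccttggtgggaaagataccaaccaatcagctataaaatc
*Amy2a4* (chr3:113290713-113290787): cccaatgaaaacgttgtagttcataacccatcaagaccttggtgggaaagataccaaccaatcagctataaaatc
*Amy2b* (chr3:113156127-113156201): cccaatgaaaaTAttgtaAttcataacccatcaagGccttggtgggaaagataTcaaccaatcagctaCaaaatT
*Amy1* (chr3:113569445-113569519): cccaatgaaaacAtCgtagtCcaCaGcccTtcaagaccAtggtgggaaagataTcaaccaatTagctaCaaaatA
*Amy2b* carried 7 differences here and *Amy1* carried 11, whereas *Amy2a4* carried 0, as did *Amy2a2* and *Amy2a3* in the same stretch.

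Every stretch of 75 bases in these transcripts was then searched for, on either strand, among the GENCODE transcripts of all other genes. All 1911 windows of the longest *Amy1* transcript were found in no other gene. For *Amy2b*, 1172 of 1503 windows (78.0%) were unique, and the other 331 were shared with the *Amy2a* copies. For *Amy2a5*, 1777 of 3641 windows (48.8%) were unique, but 0 of the 1450 windows inside its coding part. GENCODE ends this gene at chr3:113247178, and RefSeq ends it earlier on the minus strand, at chr3:113249178. The annotation used for counting is not given, so part of these unique windows may not have been counted. For *Amy2a2*, *Amy2a3* and *Amy2a4*, 0 of 3643 windows were unique. The authors counted fragments that mapped to 1 place, and a pair of reads can be unique where 1 read is not, so the count of a copy reflects only the part of its transcript that could be placed.

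**Figure D1:**
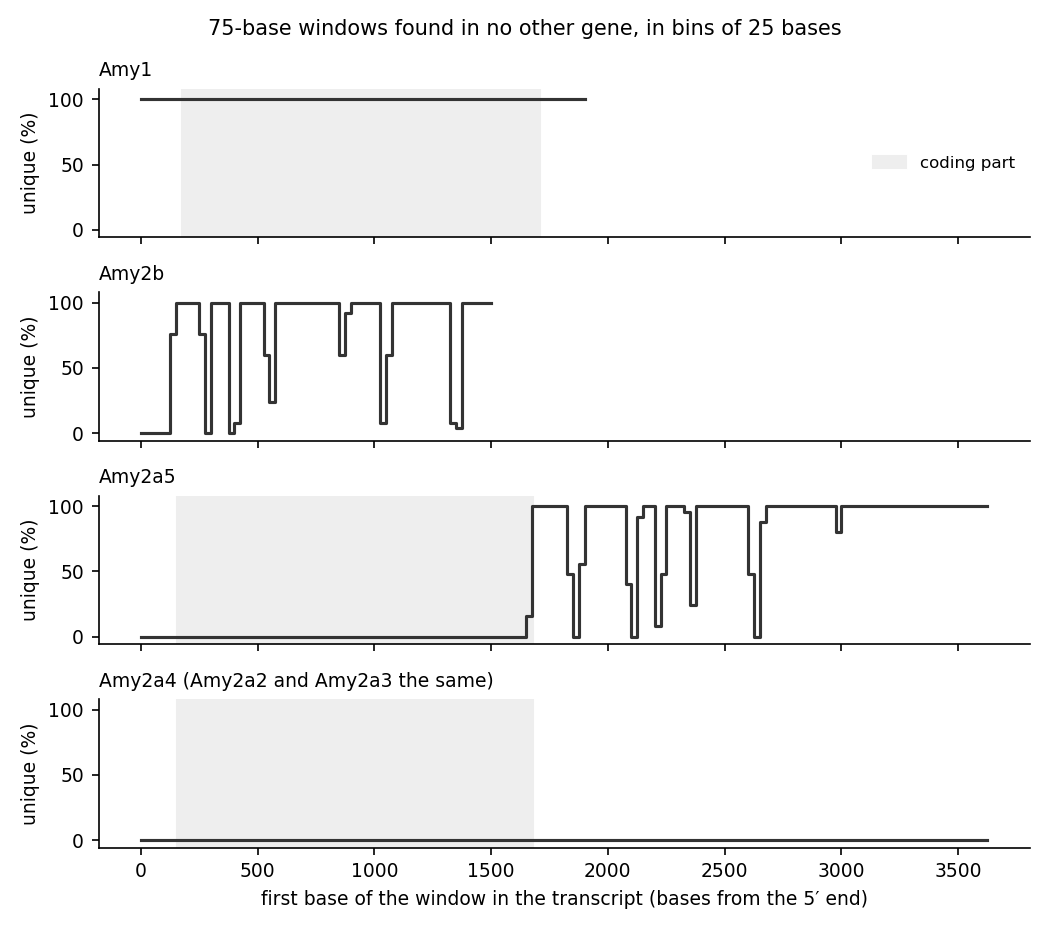
Share of 75-base windows found in no other gene (y axis, percent, in bins of 25 bases) by the position of the window in the transcript (x axis, bases from the 5′ end), with the coding part in grey where GENCODE annotates one, which it does not for Amy2b. Amy1 stays at 100% throughout, Amy2a4 at 0% throughout, and Amy2a5 has no unique window within its coding part and most of its unique windows after it.

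The RefSeq promoter table held windows of 300 bases for all 6 genes (GRCm38.p6, 250 bases before and 50 after each annotated start), with 2 starts for *Amy1*. The 150 bases before the start are shown for *Amy2b* and *Amy2a5*, and for the *Amy1* start that had a TATA box, 5′ to 3′ on the minus strand, with capitals marking the motifs CACCTG (the E-box of the PTF1 site), CAGCTG (another E-box, searched for only after the sequences had been read) and TATAAA.
*Amy2b* (chr3:113156728-113156877): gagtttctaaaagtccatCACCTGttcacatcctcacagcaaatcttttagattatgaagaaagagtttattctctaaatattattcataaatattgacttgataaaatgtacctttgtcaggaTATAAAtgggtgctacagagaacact
*Amy2a5* (chr3:113258700-113258849): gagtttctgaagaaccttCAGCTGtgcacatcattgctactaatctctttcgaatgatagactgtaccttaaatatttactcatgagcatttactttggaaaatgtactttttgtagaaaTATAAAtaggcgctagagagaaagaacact
*Amy1* (chr3:113574763-113574912): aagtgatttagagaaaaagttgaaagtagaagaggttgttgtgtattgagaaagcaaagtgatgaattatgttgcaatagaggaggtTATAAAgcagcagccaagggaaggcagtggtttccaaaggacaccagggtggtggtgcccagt
Counted from the start, the first base of the E-box lay at position -132 in both *Amy2* promoters. TATAAA lay at position -26 in *Amy2b*, -30 in *Amy2a5* and -63 in *Amy1*. Both strands were searched, and the motif TTTCCCA, the other part of the PTF1 site, was in none of the 7 windows in this exact spelling. Over 32851 promoter windows of the same length, CACCTG was in 20.2%, CAGCTG in 16.3%, TATAAA in 13.6% and TTTCCCA in 8.06%. The windows of *Amy2a2*, *Amy2a3* and *Amy2a4* were identical to each other, and their annotated start lay further upstream, so that 162 of their 300 bases were those of the *Amy2a5* window.

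*Amy2b* had the most counts of the members in every mouse. This does not rank the copies by abundance, since 78.0% of *Amy2b* windows but 0 of 3643 *Amy2a2*, *Amy2a3* and *Amy2a4* windows were unique. *Amy2b* counts ran from 9887 to 16845 in the baseline mice (median 15498), from 16608 to 20446 in the day 7 mice (median 18147) and from 13941 to 22826 in the day 14 mice (median 19777). *Amy1* counts ran from 1183 to 1536 in the baseline mice, from 1755 to 1982 in the day 7 mice and from 1339 to 2077 in the day 14 mice. *Amy2a5* had 14 to 60, 51 to 90 and 36 to 73 counts at the same time points. *Amy2a2*, *Amy2a3* and *Amy2a4* had equal counts in 23 of 23 mice, between 7 and 20 in the baseline mice, 13 and 30 in the day 7 mice and 9 and 21 in the day 14 mice. They are therefore given below as 1 measurement, and 4 distinct rows stood for the 6 genes. Equal rows were rare elsewhere: of 11936 symbols with a mean of at least 10 counts, 23 were equal to another symbol in every mouse, in 11 groups.

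With the equal rows counted once, the cluster took 0.206% ± 0.0286 (SD, n = 8) of all counts at baseline, 0.232% ± 0.0193 (n = 8) at day 7 and 0.235% ± 0.0311 (n = 7) at day 14. *Amy2b* made up 86.0% to 92.9% of these amylase counts, and *Amy1* made up 6.98% to 13.4%. Per kilobase of transcript, *Amy2b* stood at a mean level of 1406 CPM per kb at baseline (CPM, counts divided by the library size and multiplied by 1000000), rank 19 of the 6 members and 28 other digestive enzymes, between *Pnliprp2* (3363) and *Pla2g1b* (1190). *Amy1* stood at 105 CPM per kb, rank 24, *Amy2a5* at 1.79 and *Amy2a2* at 0.532. Pancreatic lipase, *Pnlip*, led this order with 67983 CPM per kb. These levels divide by the whole transcript and not by its unique part. They can understate the *Amy2a* copies and the cluster as a whole, since fragments that fit more than 1 copy may not have been counted.

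Levels below are CPM on library sizes scaled by TMM, a method that centres most genes, unless stated otherwise. *Amy2b* ranged from 1221 to 2506 CPM in the baseline mice (median 2390), from 1266 to 2231 in the day 7 mice (median 1747) and from 1563 to 2521 in the day 14 mice (median 2134). The groups overlapped, and 0 of the 8 day 7 mice lay below the lowest baseline mouse. *Amy1* ranged from 146 to 265 CPM in the baseline mice (median 206), from 137 to 208 in the day 7 mice (median 190) and from 168 to 238 in the day 14 mice (median 213), with 1 of 8 day 7 mice below every baseline mouse. *Amy2a5* ranged from 1.73 to 8.51 CPM in the baseline mice, 5.11 to 10.03 in the day 7 mice and 3.87 to 7.91 in the day 14 mice. *Amy2a2* ranged from 0.863 to 2.82, 1.21 to 3.12 and 1.01 to 2.23.

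The spread between mice was far above counting error for the abundant members. The SD of *Amy2b* was 19.9% of the mean at baseline, where counting alone gives 0.822%, and that of *Amy1* was 17.2%, where counting gives 2.68%. For *Amy2a2* the SD was 31.8% of the mean and counting alone gives 27.5%, a spread close to that of counting. For *Amy2a5* these values were 33.7% and 15.1%.

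**Figure D2:**
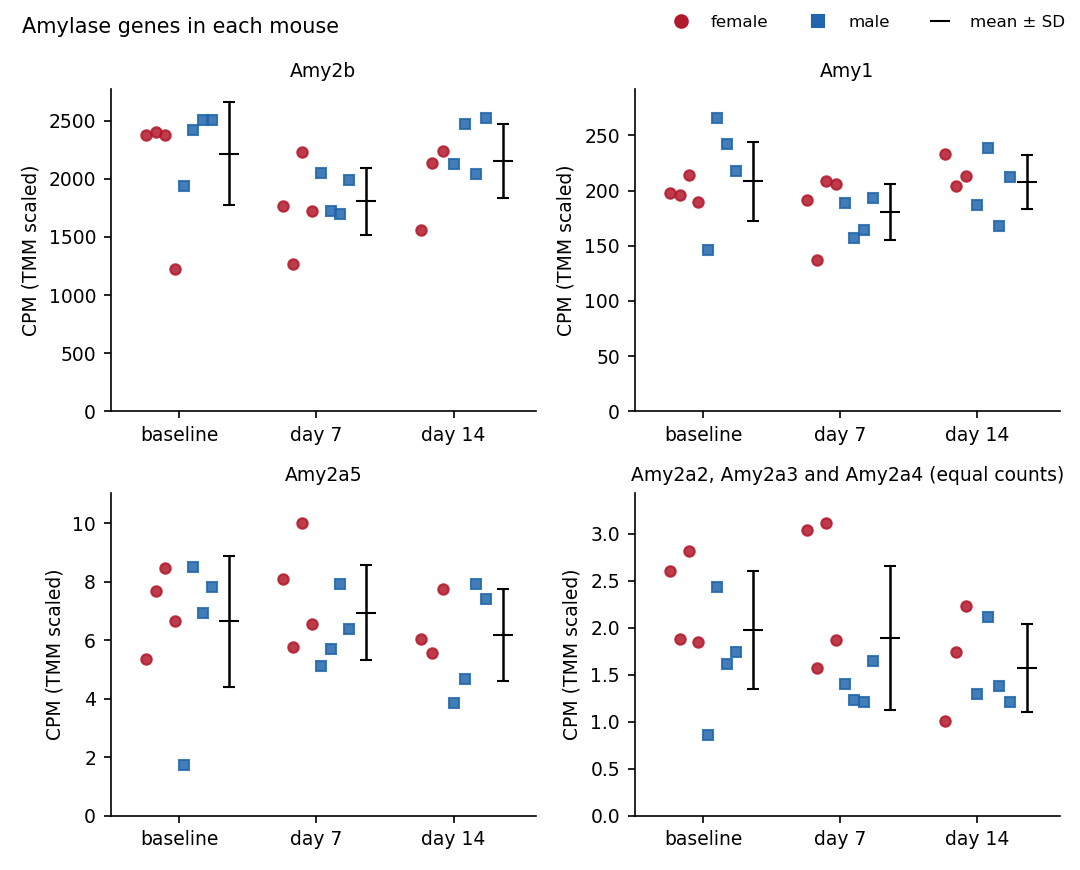
CPM on TMM-scaled library sizes (y axis, linear, from 0) in each mouse at baseline, day 7 and day 14 (x axis), for Amy2b, Amy1, Amy2a5 and the 3 symbols with equal counts, with females as circles, males as squares and the mean ± SD beside each group. The 3 time points overlap in every panel, 1 female at baseline lies at 1221 CPM of Amy2b below the other baseline mice, and 1 male at baseline has the lowest Amy2a5 value, 1.73 CPM.

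Against baseline at day 7, 0 of the 6 members passed the test in edgeR (a fold change of 1.5 or more with an adjusted p no higher than 0.05), where 5.13% of 12195 tested genes did. At an unadjusted p below 0.05 there was 1 member, *Amy2b*, in edgeR, where 3925 of the 12195 tested genes were below it. In DESeq2, which also called 0 members, there were 2, *Amy2b* and *Amy1*. The mean of *Amy2b* was 2218 ± 441 CPM (SD, n = 8) at baseline and 1806 ± 291 (n = 8) at day 7, with a log2 fold change of -0.29 (95% interval -0.54 to -0.044, unadjusted p = 0.0232, adjusted p = 0.0932), a sign that turned with total count scaling. *Amy1* had a log2 fold change of -0.21 (interval -0.42 to 0.0046, adjusted p = 0.165), whose sign turned likewise. *Amy2a5* had 0.072 (interval -0.37 to 0.51, adjusted p = 0.849) and *Amy2a2* -0.080 (interval -0.54 to 0.38, adjusted p = 0.839). With TMM, all 4 intervals lay within a 1.5-fold change in either direction.

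The sign of these values depended on the scaling. When counts were scaled by the total count alone, the median of all tested genes at day 7 moved to a log2 fold change of 0.47, from 0.022 with TMM, and there *Amy2b* had 0.16 (adjusted p = 0.120), *Amy1* 0.24 (adjusted p = 0.00644), *Amy2a5* 0.53 (adjusted p = 0.0189) and *Amy2a2* 0.36 (adjusted p = 0.115). As a plain share of all counts, *Amy2b* had a mean of 1879 ± 286 CPM in the baseline mice, 2098 ± 186 in the day 7 mice and 2138 ± 308 in the day 14 mice. On this measure 5 of 8 day 7 mice lay above every baseline mouse, and how many of all genes do so was not counted. Also under this scaling, 0 members passed both thresholds. The adjusted p of *Amy2b* also turned on single mice: it was 0.00791 without baseline mouse 4 (log2 fold change -0.38) and 0.0340 without day 7 mouse 11 (-0.37), and that of *Amy1* was 0.0431 without baseline mouse 5 (-0.26), each still under 1.5-fold.

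At day 14, 0 of the 6 members passed the test against baseline in edgeR or DESeq2, where 0.787% of genes tested in edgeR did. An unadjusted p below 0.05 was found for 0 members in either tool and for 1618 of 12195 genes in edgeR. The log2 fold change was -0.052 (95% interval -0.31 to 0.21) for *Amy2b*, -0.0022 (-0.22 to 0.22) for *Amy1*, -0.078 (-0.54 to 0.39) for *Amy2a5* and -0.27 (-0.76 to 0.23) for *Amy2a2*, with adjusted p from 0.706 to 0.997. The first 3 changed sign with total count scaling, where *Amy1* had 0.22 (adjusted p = 0.0423), and the median of all genes there was 0.22. Between day 14 and day 7, 0 of 6 members passed in edgeR or DESeq2, against 0.377% of all genes. An unadjusted p below 0.05 was found for 0 members in either tool and for 1721 of 12195 genes in edgeR. *Amy2b* had a log2 difference of 0.24 (interval -0.018 to 0.50, adjusted p = 0.397) and *Amy1* 0.20 (interval -0.014 to 0.42, adjusted p = 0.395; -0.022 with total count scaling). With TMM, 4 of 7 day 14 mice lay above every day 7 mouse for *Amy1* and 3 of 7 for *Amy2b*. As a share of all counts, 0 of 7 lay above and 1 below for *Amy1*, and 2 above and 1 below for *Amy2b*. How many of all genes show such placings was not counted, so they are a description only.

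The members were set beside the other digestive enzymes of the acinar cell, a list of 28 genes. At day 7, 11 of the 28 fell and 7 rose past the threshold with TMM, at a median log2 fold change of -0.54, whereas with total count scaling 0 fell and 7 rose, at a median of -0.095. At day 14, 0 fell and 3 rose with TMM, and the median was -0.26. Over all genes tested with TMM, 1.31% fell and 3.82% rose at day 7, and 0.0902% fell and 0.697% rose at day 14. With total count scaling, 3695 of all 12195 genes were called in either direction at day 7, at a median log2 fold change of 0.47. The 7 rises under that scaling are to be read beside this. The largest falls at day 7, none of which reached 1.5-fold with total count scaling, were those of the trypsinogen *Prss2* (44312 ± 7876 CPM at baseline and 23092 ± 3795 at day 7, log2 fold change -0.94, adjusted p = 4.44e-07), pancreatic lipase *Pnlip* (-0.88, adjusted p = 4.51e-08) and carboxypeptidase *Cpa1* (-0.87, adjusted p = 1.83e-07). The largest rises were of genes of the trypsin family, which also has near-identical copies. *Gm2663* had 0 to 6 counts in the baseline mice and 980 to 2840 in the day 7 mice. *1810009J06Rik* had 3 to 12 and 366 to 1385 counts, and *Gm10334* had 22 to 58 and 321 to 758.

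**Figure D3:**
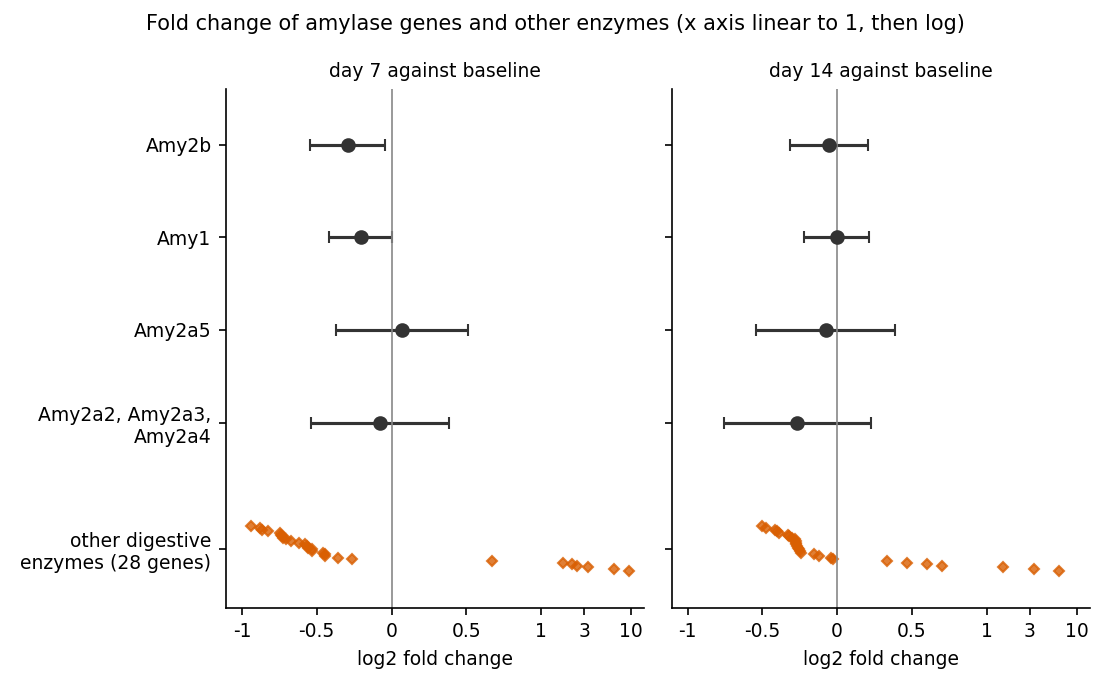
Log2 fold change against baseline (x axis, linear between -1 and 1 and logarithmic beyond) at day 7 and day 14, as points with 95% intervals for the amylase genes and as diamonds for each of the 28 other digestive enzymes. With the TMM scaling drawn here, Amy2b lies at -0.29 and Amy1 at -0.21 at day 7 (0.16 and 0.24 with total count scaling), while the enzymes have a median of -0.54 and 7 of them lie above 0.

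A ratio of counts within a library does not depend on the scaling, and *Amy2b* and *Amy1* were therefore set against the summed counts of these 28 enzymes, a measure added after the data had been seen. The enzymes took 64.9% ± 2.17 of all counts at baseline, 55.9% ± 2.41 at day 7 and 60.8% ± 1.53 at day 14. Per 1000 enzyme counts there were 2.02 to 3.25 counts of *Amy2b* in the baseline mice (median 3.03), 3.45 to 4.09 in the day 7 mice (median 3.68) and 2.67 to 3.94 in the day 14 mice (median 3.72). Every day 7 mouse lay above every baseline mouse. The log2 ratio was higher by 0.39 at day 7 (1.31-fold, exact two-sided permutation p = 0.000155, the smallest this design allows, adjusted over 6 ratios p = 0.000466) and by 0.28 at day 14 (1.22-fold, exact p = 0.0214, adjusted p = 0.0322). With TMM, the summed enzymes ran from 605570 to 878742 CPM in the baseline mice and from 367589 to 545213 in the day 7 mice. The median log2 fold change of all genes at day 7 was 0.022, so a gene unchanged under TMM also rises against this sum. The p-values of the permutation test therefore do not show a change particular to *Amy2b*. The share of all genes for which such a ratio sets every day 7 mouse above every baseline mouse was not counted.

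*Amy1* gave 2.04 to 3.13 counts per 10000 enzyme counts in the baseline mice, 3.55 to 4.29 in the day 7 mice and 2.52 to 3.98 in the day 14 mice. Its log2 ratio to the enzymes was higher by 0.47 at day 7 (1.39-fold, exact permutation p = 0.000155, adjusted p = 0.000466) and by 0.31 at day 14 (1.24-fold, exact p = 0.0127, adjusted p = 0.0255). Between day 7 and day 14 the adjusted p was 0.252 for *Amy2b* and 0.0981 for *Amy1*. The 2 ratios share their denominator and the 2 comparisons share the baseline mice. Both day 7 differences kept an adjusted p of at most 0.000932 with any 1 mouse left out, but the day 14 differences did not. For *Amy2b* the adjusted p at day 14 was above 0.05 without any 1 of baseline mice 4, 5 and 6 and day 14 mice 18, 19, 22 and 24 (0.0542 to 0.0659), and for *Amy1* without day 14 mouse 19 (0.0506) or 22 (0.0546). A ratio shows unequal change of its members and not which of them moved. For *Amy1* too, the p-values do not show a change particular to it, since the denominator is the same enzyme sum.

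**Figure D4:**
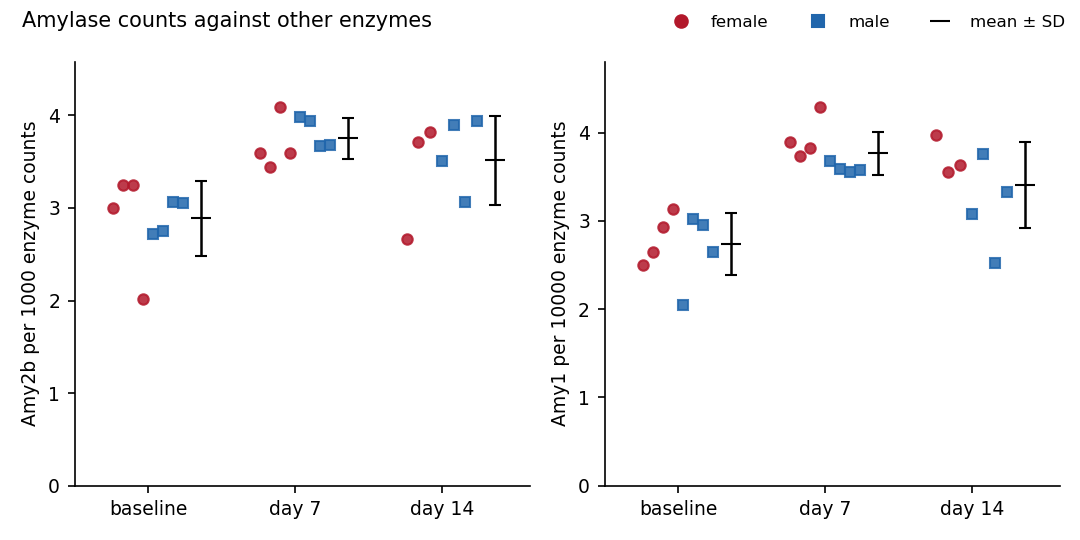
Counts of Amy2b per 1000, and of Amy1 per 10000, counts of the 28 other digestive enzymes (y axes, from 0) in each mouse by time point (x axis), with females as circles, males as squares and the mean ± SD beside each group. All 8 day 7 mice lie at or above 3.45 for Amy2b and 3.55 for Amy1, and all 8 baseline mice lie at or below 3.25 and 3.13.

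Within the cluster, no difference in the proportions of the members between time points passed the test. *Amy1* gave 7.51 to 15.5 counts per 100 of *Amy2b* in the baseline mice (median 8.86), 9.12 to 11.9 in the day 7 mice (median 9.69) and 8.23 to 14.9 in the day 14 mice (median 9.51). The log2 ratio of *Amy1* to *Amy2b* differed from baseline by 0.082 at day 7 (exact permutation p = 0.556) and by 0.029 at day 14 (exact p = 0.848), where its SD between baseline mice was 0.33. *Amy2a5* gave 0.889 to 5.46 counts per 1000 of *Amy2b* in the baseline mice, 2.49 to 4.67 in the day 7 mice and 1.82 to 3.87 in the day 14 mice. Its log2 ratio was higher by 0.43 at day 7 than at baseline (exact p = 0.147; 0.20 without baseline mouse 5 and 0.57 without baseline mouse 4) and lower at day 14 than at day 7 by a difference of -0.44 (exact p = 0.0535). Adjusted over these 6 tests, p ranged from 0.321 to 0.980.

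A pair of female mice stood apart in the balance of the 2 members with the most counts. Baseline mouse 4 had 15.5 and day 14 mouse 17 had 14.9 counts of *Amy1* per 100 of *Amy2b*, and the other 21 mice had 7.51 to 11.9. Their *Amy2b* levels, 1221 and 1563 CPM, were the lowest of their time points, while their *Amy1* levels, 190 and 233 CPM, lay within the range of the other mice of their groups. Summed acinar markers were also the lowest of the group in both, with 310972 CPM in mouse 4 (range of the baseline group 310972 to 444510) and 282477 in mouse 17 (range at day 14 282477 to 341966). Summed islet markers were the lowest of the group in mouse 4 (121.5 CPM) and the highest in mouse 17 (801 CPM). Mouse 4 also had the highest fibroblast sum of its group (622 CPM) and ranked second in macrophage, lymphocyte, adipocyte and endothelial markers, and mouse 17 had the highest duct sum (125 CPM) and the lowest endothelial sum (69.7 CPM). The part of these markers in the *Amy2b* values of the 2 mice was not tested. Without these 2 mice, a check added after seeing the data, *Amy2b* had a log2 fold change of -0.38 at day 7 (adjusted p = 0.00491) and 0 members passed both thresholds in any of the 3 comparisons.

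**Figure D5:**
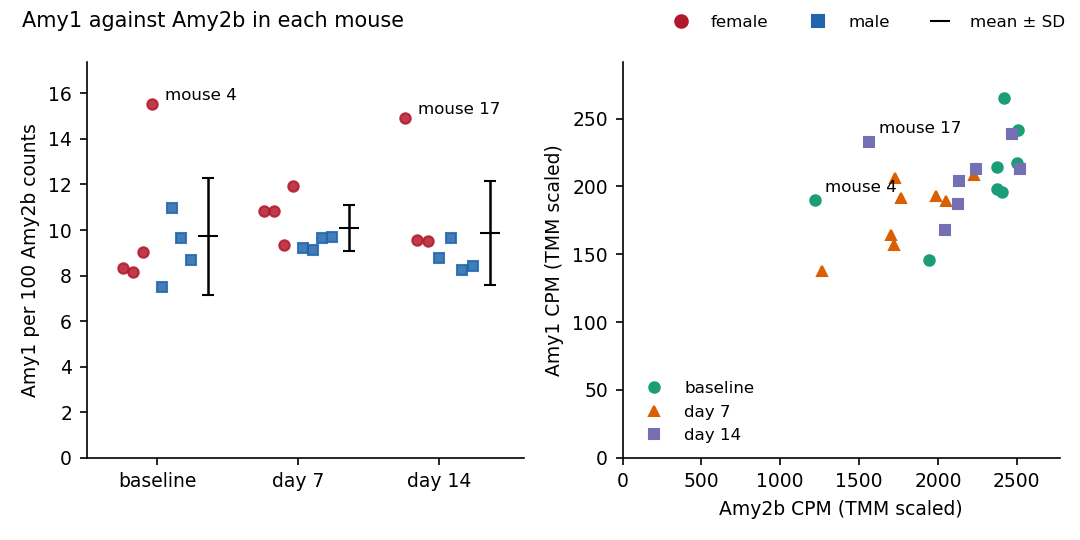
Left, counts of Amy1 per 100 counts of Amy2b (y axis, from 0) in each mouse by time point, with females as circles, males as squares and the mean ± SD beside each group. Right, Amy1 against Amy2b, both in CPM on TMM-scaled library sizes, with baseline as circles, day 7 as triangles and day 14 as squares; mice 4 and 17 lie to the left of the other mice of their time points, at 1221 and 1563 CPM of Amy2b.

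Between the sexes, 0 of 6 members passed the test in edgeR or DESeq2, where 0.23% of all genes tested in edgeR did. The rows of *Amy2a2*, *Amy2a3* and *Amy2a4* had an unadjusted p below 0.05 in both tools, as had 1097 of 12195 genes in edgeR. *Amy2a2* ranged from 1.01 to 3.12 CPM in the 11 females (mean 2.16 ± 0.666) and from 0.863 to 2.43 in the 12 males (mean 1.51 ± 0.431), with a log2 fold change in males against females of -0.50 (95% interval -0.89 to -0.11, unadjusted p = 0.0133, adjusted p = 0.3598). These are 1 measurement of 7 to 30 counts a mouse, counted under 3 symbols. *Amy2b* had 0.15 (interval -0.057 to 0.36, adjusted p = 0.745), *Amy1* -0.016 (interval -0.19 to 0.16) and *Amy2a5* -0.20 (interval -0.57 to 0.17). The response to injury differed by sex for 0 of 6 members in edgeR or DESeq2, with 0 at an unadjusted p below 0.05 in either tool. Of 12933 genes tested for this interaction in edgeR, 0.00773% passed at day 7 and 0% at day 14. An unadjusted p below 0.05 was found for 705 of them at day 7 and for 473 at day 14. The *Amy2b* interaction was -0.067 (interval -0.60 to 0.47) at day 7 and 0.037 (interval -0.52 to 0.59) at day 14, and each interval holds a 1.5-fold difference in 1 direction.

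Transcription factors of the acinar cell known to act on these promoters were measured beside the members. Of 12 tested of a list of 13, 0 passed both thresholds at day 7 or day 14 (edgeR). With total count scaling 1 rose at day 7, beside 3695 of all 12195 genes called in either direction. In edgeR, 5 of the 12 had an unadjusted p below 0.05 at day 7, beside 3925 of all 12195 genes. At day 14 there were 2, beside 1618 of all genes. *Ptf1a*, the DNA-binding subunit of PTF1, had 42.5 ± 8.42 CPM at baseline and 37.5 ± 8.82 at day 7 (log2 fold change -0.18, adjusted p = 0.374, and 0.27 with total count scaling). *Rbpjl*, its partner in the acinar cell, had 196 ± 11.4 and 153 ± 25.6 CPM (log2 fold change -0.36, adjusted p = 0.00490), under 1.5-fold and with total count scaling at 0.088. *Nr5a2*, a nuclear receptor that acts with PTF1, had 65.3 ± 12.5 and 66.4 ± 14.6 CPM (log2 fold change 0.023, adjusted p = 0.930, and 0.47, adjusted p = 0.00176, with total count scaling).

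Of 6 genes of the insulin axis, 2 rose at day 7 and 0 passed at day 14 (edgeR, 2 at an unadjusted p below 0.05). Over all 12195 genes in edgeR, 3.82% rose at day 7 and 1618 had an unadjusted p below 0.05 at day 14. With total count scaling, 3 of the 6 rose at day 7 and 2 at day 14, beside 3695 and 448 of all 12195 genes called. *Ins1* had 100 ± 38.2 CPM at baseline and 207 ± 77.2 at day 7 (log2 fold change 1.04, adjusted p = 0.0116), and *Ins2* had 136 ± 51.5 and 267 ± 85.9 CPM (0.97, adjusted p = 0.0132). The insulin receptor *Insr* had 129 ± 16.03 and 112 ± 14.5 CPM (-0.21, adjusted p = 0.0647, and 0.24 with total count scaling). Of 21 tested genes of starch and glycogen metabolism, 1 rose at day 7, the islet glucose-6-phosphatase *G6pc2* (log2 fold change 1.45, adjusted p = 0.00271), 0 fell, and the median was -0.021, beside 0.022 over all genes, whereas with total count scaling 5 rose and the median was 0.43, beside 0.47. Over all 12195 genes 626 (5.13%) were called with TMM and 3695 with total count scaling. The share called in this list was close to that of all genes with TMM and not above it with total count scaling. At day 14, 0 of the 21 passed (edgeR, 2 at an unadjusted p below 0.05, beside 1618 of all 12195 genes).

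Markers of several other cell types moved at day 7, and few did at day 14. At day 7, 6 of 6 fibroblast, 5 of 6 macrophage, 3 of 6 islet and 2 of 6 duct markers were higher past the threshold and 5 of 6 acinar markers were lower, of which 0 reached 1.5-fold with total count scaling. Of the 6 duct markers, 3 had positive and 3 negative log2 fold changes at day 7, with a median of 0.033 beside 0.022 over all genes. Over all genes tested with TMM, 3.82% were called higher and 1.31% lower at day 7, and 0.697% and 0.0902% at day 14. With total count scaling, 3695 of all 12195 genes were called in either direction at day 7 and 448 at day 14. All 6 acinar markers are also among the 28 digestive enzymes. Of 5 endothelial markers 0 were called at day 7, and their median log2 fold change was -0.31, or 0.13 with total count scaling, where 1 was higher past the threshold. At day 14, 2 of 6 fibroblast markers were higher, and 0 acinar, islet, duct, macrophage or endothelial markers were called with TMM, whereas total count scaling called 5 fibroblast, 4 islet and 1 duct markers higher. Summed fibroblast markers ranged from 311 to 622 CPM in the baseline mice and from 589 to 1137 in the day 7 mice. Summed islet markers ranged from 121.5 to 510 and from 363 to 1083, and summed macrophage markers from 26.1 to 86.3 and from 50.1 to 114. Duodenal markers summed to at most 1.87 CPM in any mouse. The part of these markers in the amylase values was not tested.

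With TMM, the 5 genes whose log2 CPM followed that of *Amy2b* most closely over the 23 mice were *Hsd17b13* (Pearson r = 0.770), *Cldn12* (0.768), *Rabac1* (0.758), *Gprc5c* (0.755) and *Pdia2* (0.753), a protein disulfide isomerase of the pancreas. Within time points r was 0.703 to 0.760, and with total count scaling it was 0.413 to 0.607, where *Gprc5c* ranked 5 among 12189 genes and the other 4 ranked from 42 to 176, so that the order rests on the scaling. All points of such a correlation share the library and its scaling, and r is given as a description. The protein-coding genes next to the cluster were far less abundant than *Amy2b*. *Rnpc3* had 14.4 ± 2.02 CPM at baseline and 18.7 ± 1.97 at day 7 (log2 fold change 0.39, adjusted p = 0.00130, and 0.85, past both thresholds, with total count scaling). In GENCODE its gene span overlaps that of *Amy1* by 1632 bases on the same strand. Overlap of their exons was not examined, and all 1911 windows of the longest *Amy1* transcript were found in no other gene. *Prmt6* and *Vav3* lay on the other side, 2897 and 3462 kb from the cluster. Their log2 fold changes at day 7 were 0.35 (adjusted p = 0.0418) and 0.63 (adjusted p = 0.114). With total count scaling these were 0.81 and 1.096, both past both thresholds. *Ntng1*, *Col11a1* and *Olfm3* had too few counts to be tested.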

How the data were processed

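The deposited values were whole-number counts of read fragments per gene symbol for 23 mice, used as they were. The authors depleted total RNA of ribosomal RNA with a stranded kit, sequenced paired 75-base reads, trimmed them with Trim Galore and cutadapt, aligned them to mm10 with STAR 2.5.2a and counted uniquely mapped fragments with featureCounts. The gene annotation and the setting for overlapping genes are not given in the sources used here, nor is the way in which equal counts came to stand under 3 symbols. Totals were 7059890 to 9567446 per mouse. Counting errors treat fragments as independent molecules, which PCR copies are not.

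Genes kept by filterByExpr (12195) were tested with edgeR 4.0.16 (R 4.3.3, limma 3.58.1): TMM factors and the quasi-likelihood F test (robust dispersions), with time point and sex as terms, over all 23 mice, with Benjamini-Hochberg adjustment over all genes tested. The interaction was taken from a fit with a mean for every combination of sex and time (12933 genes) and an adjusted p of at most 0.05. Standard errors behind the 95% intervals were derived from the F statistic. Ratios were log2 of counts plus 0.5, compared with exact two-sided permutation tests over mice (scipy 1.17.1). Windows of 75 bases were matched to GENCODE vM21 transcripts, and promoters came from RefSeq. Scripts were tested on simulated data.

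The members, the gene lists and the tests were chosen with earlier results of these data known. Genes other than the members were named by rule. These were the 3 nearest protein-coding genes on each side and the 5 most correlated with the member with the most counts. The 3 largest rises and falls at day 7 among called digestive enzymes and among called starch and glycogen genes were also named. Called insulin-axis genes and acinar regulators were added, as were *Ptf1a*, *Rbpjl*, *Nr5a2*, *Ins1*, *Ins2* and *Insr*. *Pnliprp2* and *Pla2g1b* were named only as neighbours in the order of levels. Alternatives were DESeq2 1.42.0, other scalings, other filters, no covariate, only the mice compared, all members summed, counts plus 5, and leaving out each mouse.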

Additional observations from a re-analysis of the deposited data

Results flagged for a closer look

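In 24 groups of 7 or 8 mice (8 measures of the members at 3 time points), 5 had a mouse whose gap to its nearest neighbour, divided by the range of the group, exceeded Dixon's 95% critical value. Chance flags about 1 in 20 groups, and the 8 measures share counts, so the 5 are not independent.

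Baseline mouse 4 had the lowest *Amy2b* level of its group on the log2 CPM scale, with a gap ratio of 0.644, and the lowest log2 ratio of *Amy2b* to the digestive enzymes, with a gap ratio of 0.6249. Day 14 mouse 17 had the highest log2 ratio of *Amy1* to *Amy2b* of its group, with a gap ratio of 0.734. Baseline mouse 5 had the lowest *Amy2a5* level, from 14 counts, with a gap ratio of 0.712, and the lowest level of *Amy2a2*, whose counts equal those of *Amy2a3* and *Amy2a4*, from 7 counts, with a gap ratio of 0.529. In mouse 5 summed macrophage, lymphocyte, adipocyte and endothelial markers were the highest of the baseline group, at 86.3, 47.6, 88.6 and 107.6 CPM, where the group medians were 33.7, 2.89, 33.6 and 72.2 CPM. The part of these markers was not tested.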

How the results depend on the processing

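No member passed both thresholds in edgeR, in DESeq2 or under any other alternative run, in any of the 3 time comparisons, between the sexes or by interaction. The sign of several fold changes depended on the scaling. With total count scaling, the log2 fold change at day 7 was 0.16 for *Amy2b*, 0.24 for *Amy1* and 0.36 for *Amy2a2*, at day 14 it was 0.18 for *Amy2b*, 0.22 for *Amy1* and 0.14 for *Amy2a5*, and for *Amy1* at day 14 against day 7 it was -0.022, all opposite in sign to TMM, where the construction of the scaling moves all genes. *Amy1* at day 14, at -0.0022 with TMM, was also positive without the 20 most abundant genes in the total (0.021), with no filter (0.0067) and with at least 10 counts in every mouse (0.0082). Of the counts called over all genes, total count scaling gave 3695 at day 7, 448 at day 14 and 473 between them, against 626, 96 and 46, and at least 10 counts in every mouse gave 348, 66 and 30, with fewer genes tested. With all members summed into 1 row the log2 fold change was -0.28, -0.048 and 0.24.

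With each mouse left out in turn, log2 fold changes that crossed 0 ranged at day 7 from -0.078 to 0.15 for *Amy2a5* and from -0.18 to 0.016 for *Amy2a2*, and at day 14 from -0.13 to 0.0069 for *Amy2b*, from -0.065 to 0.062 for *Amy1* and from -0.24 to 0.0084 for *Amy2a5*. The log2 ratio of *Amy1* to *Amy2b* at day 14 against baseline ranged from -0.075 to 0.13 and that of *Amy2a5* to *Amy2b* from -0.24 to 0.13 (0.20 to 0.57 at day 7 against baseline). The ratio to the digestive enzymes at day 14 against baseline ranged from 0.21 to 0.35 for *Amy2b*, with adjusted p up to 0.0659, past 0.05 for 7 of the 15 mice compared, and from 0.25 to 0.38 for *Amy1*, with adjusted p up to 0.0546, without day 14 mouse 19 or 22. At day 14 against day 7 the *Amy1* ratio ranged from -0.20 to -0.087, with an adjusted p of 0.0328 without mouse 17. The cause of these shifts was not tested. No paired analysis was possible because no mouse number occurs at more than 1 time point. Depth limits *Amy2a2*, *Amy2a3*, *Amy2a4* and *Amy2a5*, with at most 90 counts a mouse.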
